A study of Rattus norvegicus with 18 samples.

Results

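Cyclin D1 (Ccnd1) and cyclin D2 (Ccnd2) were followed in rat kidney after recovery from an ischemic injury. Both were taken by their gene symbols in the annotation of the array, and 1 clone was found for each, so that 2 of the 2304 spotted clones were described. The 2 genes were chosen by their ARF over sham log ratios, which were already known. Those ratios are therefore given as a description, with no test.

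Total RNA of whole kidney was compared on two-colour cDNA arrays, on which 2 RNAs labelled with Cy3 and Cy5 compete for the same spot. The 6 ARF rats (acute renal failure) had been through 52 min of renal ischemia with reperfusion and 35 days of recovery, and the 6 sham rats were sham-operated. Each of 6 pairs, A to F, of 1 ARF rat and 1 sham rat was measured on 2 arrays, with the dye of each RNA changed over between them. The 6 reference arrays, R1 to R6, set sham rats against other sham rats. Strain, sex and age are not given in the labels, and nothing in them says that a rat of either group carried an allele or received an agent. Values are deposited log ratios whose base is not stated. The direction is not stated either: a value below 0 was taken to mean lower in ARF, and under the opposite convention every sign turns. A log ratio of 2 RNAs on 1 spot holds no level that can be set against that of another gene.

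D-type cyclins are the regulatory subunits of the kinases Cdk4 and Cdk6. Their genes are switched on by mitogens, the cyclin-kinase complexes phosphorylate the retinoblastoma protein Rb1, and Rb1 then releases E2F factors that turn on the genes of DNA replication. In the kidney, surviving tubule cells enter the cell cycle after ischemia and replace those that were lost, and the tubules later return to a quiescent state.

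Of the 4608 spots, 1586 to 2786 had a value on an array of an ARF-sham pair and 914 to 2232 on a reference array. Duplicate spots of a clone correlated with r between 0.754 and 0.904 on the ARF-sham arrays and between 0.60 and 0.853 on the reference arrays. The reference arrays were deposited in a different row order, and adjacent blocks of 288 rows had to be exchanged before clones could be matched. In the exchanged order 81.2% of the cells of 31 ribosomal protein clones held a value on the reference arrays, against 37.1% in the deposited order, where the clones of all kinds held 40.9%. Each value of Ccnd1 and Ccnd2 on a reference array rests on that exchange, which was chosen after the values were seen.

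Ccnd1 was lower in the ARF rat than in its sham partner in all 6 pairs. Its mean log ratio was -0.56 ± 0.16 (SD, n = 6 pairs), with a median of -0.56. If the logs are to base 2 this is a level 1.48-fold lower in ARF, if they are natural logs 1.75-fold lower, and if they are to base 10 3.64-fold lower. Of the 600 clones measured in all 6 pairs, 31 (5.17%) were below 0 in each of them and 27 (4.5%) above. A further comparison took the 947 clones that had both dye orientations in no fewer than 4 pairs. Of these 9 (0.95%) passed the threshold of 0.05 on limma's Benjamini-Hochberg adjusted p, 6 (0.634%) below 0 and 3 (0.317%) above, and the means of 435 of the 947 lay below 0. Since the ratios of this contrast led to the choice of Ccnd1, nothing is read from these shares. In RNA of a whole kidney, fewer cells that express a gene and less RNA of it per cell cannot be told apart.

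The pair values of Ccnd1 were -0.71 in A, -0.48 in B, -0.54 in C, -0.31 in D, -0.59 in E and -0.74 in F. Pairs A and F stood lowest, and pair D was nearest to 0. The SD of Ccnd1 over pairs was ordinary for this table: it ranked 521st from the highest of 947, and the median SD of all clones was 0.168. Its mean ranked 3rd from the lowest and 6th in absolute size.

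Both dye orientations gave Ccnd1 below 0 in every pair. With the sham RNA in Cy3, the arrays read -0.81 in A, -0.47 in B, -0.45 in C, -0.53 in D, -0.62 in E and -0.75 in F. With the sham RNA in Cy5, they read -0.61 in A, -0.49 in B, -0.62 in C, -0.095 in D, -0.56 in E and -0.73 in F. The array of pair D with sham in Cy5 stood nearest to 0, and it rested on 1 spot. Without it, pair D reads -0.53 and the mean over pairs -0.598.

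Duplicate spots of Ccnd1 lay close together on the ARF-sham arrays. Of its 24 spots there, 22 held a value. On the 10 arrays with both spots, their absolute difference had a median of 0.065 and was at most 0.127. The SD over pairs, 0.158, was larger than each of these differences.

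The difference between the dye orientations is a measure that the choice of the genes did not use. For Ccnd1 the dye effect (the array with sham in Cy3 minus the array with sham in Cy5, divided by 2) was -0.099 in A, 0.013 in B, 0.088 in C, -0.218 in D, -0.028 in E and -0.012 in F. It had no common sign, and its mean of -0.043 ± 0.105 (SD, n = 6 pairs) did not pass the test (limma, adjusted p = 0.469). Over all clones the dye effect passed for 152 of 947 (16.1%).

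**Figure D1:**
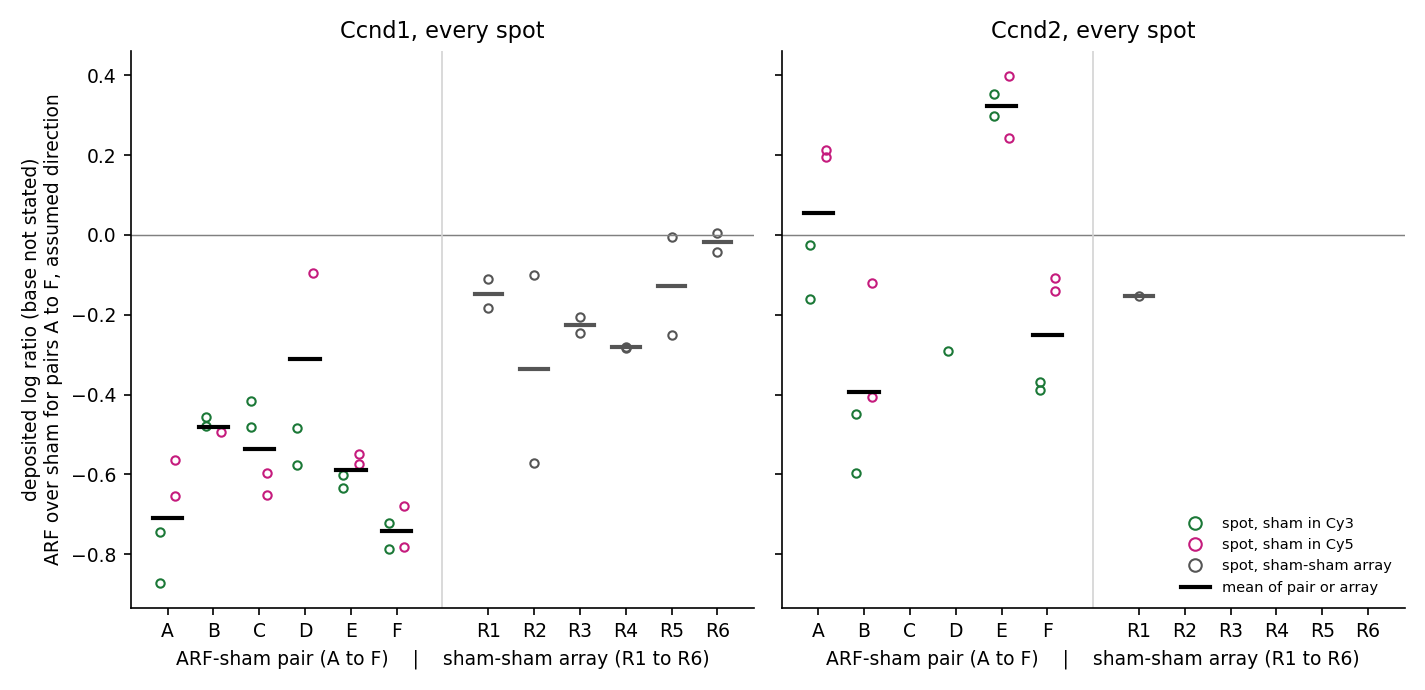
Deposited log ratios (vertical axis, base not stated) of every spot of the Ccnd1 clone (left) and the Ccnd2 clone (right), for the ARF-sham pairs A to F and the sham-sham arrays R1 to R6. Circles are spots, coloured by the dye of the sham RNA, and bars are means of a pair or a reference array; all 6 Ccnd1 pairs lie below 0, while the 4 Ccnd2 pairs lie on both sides.

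Ccnd1 was also read between sham rats. The reference arrays gave -0.147 for sham rat F over sham rat A (R1), -0.336 for E over A (R2), -0.225 for F over B (R3), -0.282 for D over B (R4), -0.127 for F over C (R5) and -0.019 for E over D (R6). All 6 were below 0, with a mean of -0.19 ± 0.12 (SD, n = 6 arrays), and 55 of the 462 clones measured on all 6 reference arrays (11.9%) were below 0 on each and 27 (5.84%) above. The mean did not pass the test (limma, adjusted p = 0.104), in which 24 of 857 clones (2.8%) passed, and arrays that share rats were counted there as if they were independent. The reference arrays were made in 1 dye orientation each, so a dye effect and a difference between sham rats cannot be told apart on them.

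The size of 1 sham-sham ratio exceeded that of the smallest ARF-sham ratio. R2, at 0.336 below 0, was further from 0 than pair D, at 0.312 below 0, so the sizes of the 2 kinds of ratio overlap. The other 5 pairs were all further from 0 than each reference array. A pair value averages 2 arrays with the dyes changed over, whereas a reference value is that of 1 array. Taken alone, the array of pair D with sham in Cy5 (-0.095) was nearer to 0 than each reference array but R6. All 12 reference spots of Ccnd1 held a value. They agreed less well than the spots on the ARF-sham arrays in R2, whose spots read -0.571 and -0.101, and in R5, whose spots read -0.25 and -0.004. On the other 4 reference arrays the spots differed by at most 0.074.

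Because the reference arrays link the sham rats, 1 relative Ccnd1 level could be estimated for each of the 12 rats by least squares over all 18 arrays, with 0 set at the mean of the sham rats. This takes both kinds of array to run in 1 direction: over all clones a reference ratio correlated above 0 with the matching difference between pair ratios on 5 of 6 arrays (r from -0.034 to 0.213). The ARF rats stood at -0.58 in A, -0.32 in B, -0.45 in C, -0.46 in D, -0.775 in E and -0.78 in F. The sham rats stood at 0.127 in A, 0.16 in B, 0.085 in C, -0.145 in D, -0.186 in E and -0.042 in F. All 6 ARF rats were below all 6 sham rats, with a gap of 0.134 between ARF rat B and sham rat E. With the direction of the reference arrays alone turned, the gap was 0.007, between ARF rat D and sham rat B.

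The order of the rats differed from the order of the pairs. Pair D had the ratio nearest to 0, and its sham rat was the second lowest of the sham rats, while its ARF rat stood beside ARF rat C. The SD of the levels was 0.188 over the ARF rats and 0.146 over the sham rats. Levels of the rats could be had for 421 clones, of which 4 (0.95%) had all ARF rats below all sham rats and 1 (0.238%) had all of them above, and again nothing is read from this share, since the levels hold the ratios that led to the choice.

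The gap between the groups depended on single reference arrays. In the assumed direction it was 0.18 without R1, R2 or R3 and 0.067 without R4 or R6. In the turned direction it was 0.03 without R2 or R6, and the groups overlapped without R1 or R3 (by a gap of -0.005) and without R4 (-0.083). R5 is the only link of sham rat C to the others and could not be left out.

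**Figure D2:**
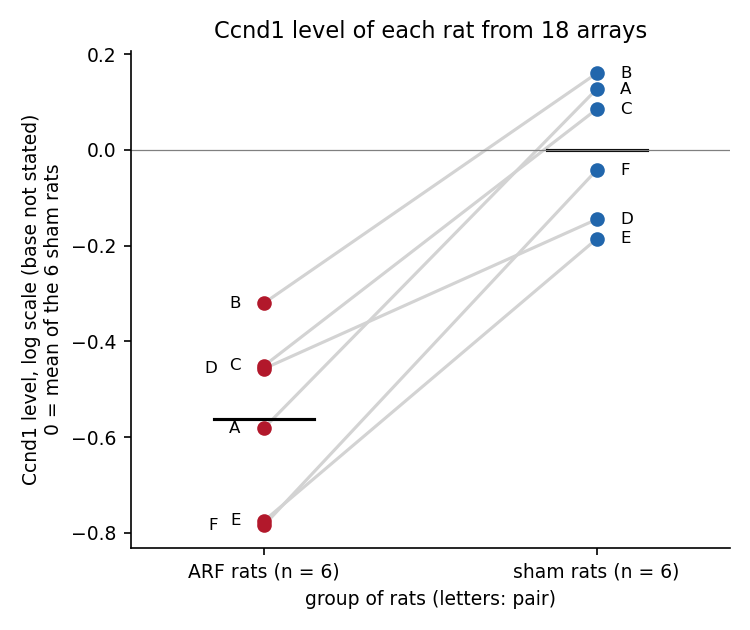
Relative Ccnd1 level of each rat (vertical axis, log scale of unstated base, 0 at the mean of the sham rats), estimated from 18 arrays without a dye term, for 6 ARF rats (left) and 6 sham rats (right). Grey lines join the rats of a pair and black bars are group means; the ARF rats run from -0.784 to -0.32 and the sham rats from -0.186 to 0.16, with no overlap in the assumed direction of the reference arrays and a gap of 0.007 in the turned one.

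Ccnd2 had no common direction in the pairs where it was measured. Its mean log ratio was -0.067 ± 0.32 (SD, n = 4 pairs), with 2 pairs below 0 and 2 above. The pair values were 0.056 in A, -0.39 in B, 0.32 in E and -0.25 in F. Pairs B and F had less Ccnd2 in the ARF rat, and pair E had more.

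The spread of Ccnd2 over pairs was large, and its spots lay closer together than its pairs. Its SD over pairs ranked 71st from the highest of 947, and its absolute mean 551st. Duplicate spots on the 8 arrays with both differed by a median of 0.095 and at most 0.286. In pair E all 4 spots were above 0, with array values of 0.325 with sham in Cy3 and 0.32 with sham in Cy5. In pair B all 4 spots were below 0, with -0.52 and -0.26.

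Ccnd2 was measured less fully than Ccnd1. Of its 24 spots on the ARF-sham arrays 17 held a value, and pair C held none. In pair D a single spot with sham in Cy3 held a value, -0.29, which left the pair without its other dye. On the reference arrays 1 of 12 spots held a value, -0.153 on R1, so neither levels of the rats nor a comparison with sham variation could be had for Ccnd2.

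The array with sham in Cy3 gave the lower Ccnd2 value in 3 of the 4 pairs. The dye effect was -0.149 in A, -0.129 in B, 0.002 in E and -0.127 in F, with a mean of -0.101 ± 0.070 (SD, n = 4 pairs), which did not pass the test (limma, adjusted p = 0.138). In pair A the sign of Ccnd2 went with the dye, at -0.093 with sham in Cy3 and 0.205 with sham in Cy5. The mean of Ccnd2 changed sign with the setting: it was -0.19 over the arrays with sham in Cy3, 0.034 over those with sham in Cy5, and 0.042 without pair B. The first of these means includes pair D, at -0.29 from 1 spot, which has no value with sham in Cy5.

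The D-type cyclins were set side by side in the 4 pairs that held both. There Ccnd1 averaged -0.63 and Ccnd2 -0.067. The log ratio of Ccnd1 minus that of Ccnd2 was -0.764 in A, -0.087 in B, -0.912 in E and -0.491 in F, with a mean of -0.56 ± 0.36 (SD, n = 4 pairs). Ccnd1 was thus the lower ratio in all 4, by little in pair B, where both were below 0 and Ccnd2 was the lower with sham in Cy3 (Ccnd1 at -0.467 and Ccnd2 at -0.523), and by most in pair E, where Ccnd2 was above 0.

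**Figure D3:**
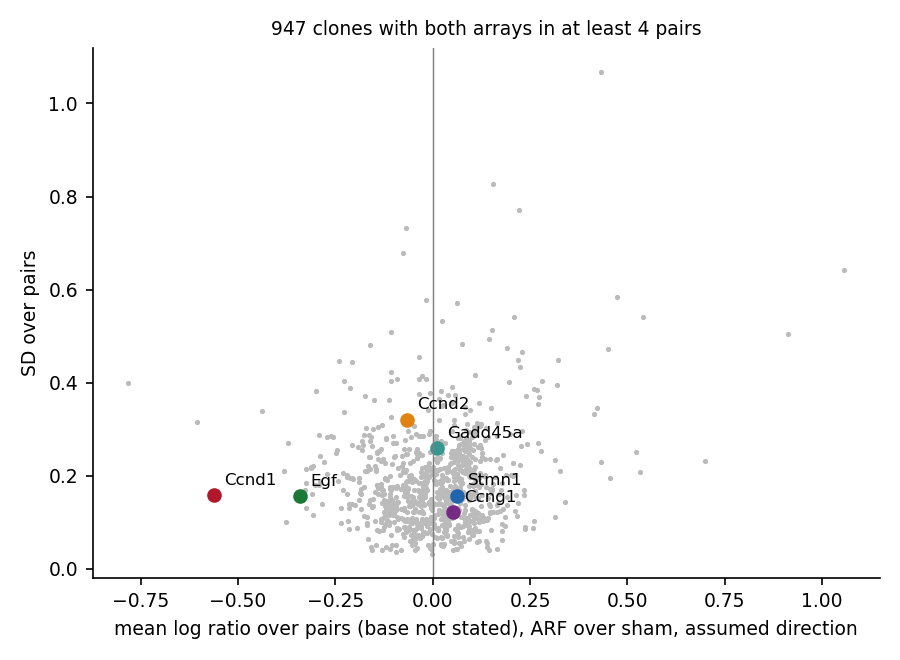
Mean log ratio of ARF over sham (horizontal axis, base not stated) against the SD over pairs (vertical axis) for 947 clones. Grey points are all clones and coloured points are named genes; Ccnd1 lies far to the left at an ordinary SD, and Ccnd2 lies near 0 at a high one.

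The other genes of the D cyclin pathway were looked up in lists drawn up with earlier results of these data known. The counts and p-values of list genes are therefore given as a description. Over all 947 clones tested, 435 means lay below 0. Of 22 further genes of the core (the other D cyclin, their kinases and inhibitors, the Rb and E2F families), none was matched to a clone, and they are not analysed here. Ccng1, cyclin G1, a target of p53, was the one other cyclin with values in at least 4 pairs. It read 0.174 in A, 0.065 in B, 0.081 in D, -0.151 in E and 0.095 in F, with a mean of 0.053 ± 0.12 (SD, n = 5 pairs; limma, adjusted p = 0.698). Ccng1 was thus above 0 in 4 of 5 pairs, and its difference from Ccnd1 was not tested.

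Genes that act after the D cyclins, in S, G2 and M phase, were measured only in part. Over all spots and arrays 57.1% of values were missing. Of 10 clones of that list, 5 held no value on any array: Ccnb1 and Cdk1, which together drive entry into mitosis, Cdc25b, the phosphatase that activates Cdk1, and the mitotic kinases Plk1 and Aurkb. Of the other 5, 2 could be tested, both had means above 0 and neither passed. Both are genes of microtubules. No cyclin or kinase of the list could be tested, so progress through the cycle was not read. Stmn1, stathmin, which destabilises microtubules, had a mean of 0.063 ± 0.157 (SD, n = 6 pairs; limma, adjusted p = 0.655), and -0.042 over the arrays with sham in Cy3. Tubb5, a beta tubulin, had a mean of 0.11 ± 0.30 (SD, n = 6 pairs; adjusted p = 0.624), with pair C at -0.452 and the other 5 above 0. The median of the 2 means was 0.087, against 0.015 over all clones tested.

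Genes of growth arrest had means above 0 in all 4 tested clones, none of which passed, with a median of 0.114. Klf6, a zinc-finger factor that restrains growth, had the highest mean, 0.34 ± 0.14 (SD, n = 4 pairs; limma, adjusted p = 0.093). Txnip, the inhibitor of thioredoxin, averaged 0.13 ± 0.25 (n = 6 pairs), Btg1, an antiproliferative factor, 0.10 ± 0.13 (n = 6 pairs), and Gadd45a, a stress-induced arrest gene, 0.010 ± 0.259 (n = 6 pairs). Of the list of immediate early genes, which mitogens switch on first, 5 clones were on the array and none had 4 pairs. Egr4, an early growth response factor that the list did not hold, averaged -0.05 ± 0.232 (SD, n = 6 pairs).

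Over all clones 9 of 947 (0.95%) passed. Among the mitogens, their receptors and binding proteins, 5 clones were tested, 4 had means above 0 and 1 passed. That one was Egf, epidermal growth factor, which the thick ascending limb and distal tubule make in large amounts. Egf was lower in ARF in all 6 pairs, at -0.345 in A, -0.439 in B, -0.2 in C, -0.21 in D, -0.246 in E and -0.597 in F, with a mean of -0.34 ± 0.16 (SD, n = 6 pairs; limma, adjusted p = 0.0482). On the reference arrays Egf lay between 0.004 and 0.106, so no ARF-sham pair came near them. The call was lost without pair A, B, E or F, with adjusted p between 0.0858 and 0.311, and with only sham in Cy3 (-0.246, adjusted p = 0.114).

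Egf and Ccnd1 were both lower in ARF in all 6 pairs, and their reference arrays differed in sign. The other 4 clones of the list did not pass: Igfbp3 averaged 0.27 ± 0.27 (n = 5 pairs) and Igfbp5 0.23 ± 0.26 (n = 6 pairs), both binding proteins of insulin-like growth factors, and the vascular growth factor Vegfa and the platelet-derived growth factor Pdgfa averaged 0.116 and 0.048. In the signalling chain between receptors and Ccnd1, 8 clones were tested, 6 with means above 0 and 2 below, and none passed. The largest means there were those of Nfkb1, a subunit of NF-kappaB, at 0.154, Dusp6, a phosphatase of the kinase Erk, at 0.135, and the transcription factor Stat3, at 0.118. The medians were 0.116 for the mitogen list and 0.055 for the signalling list.

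**Figure D4:**
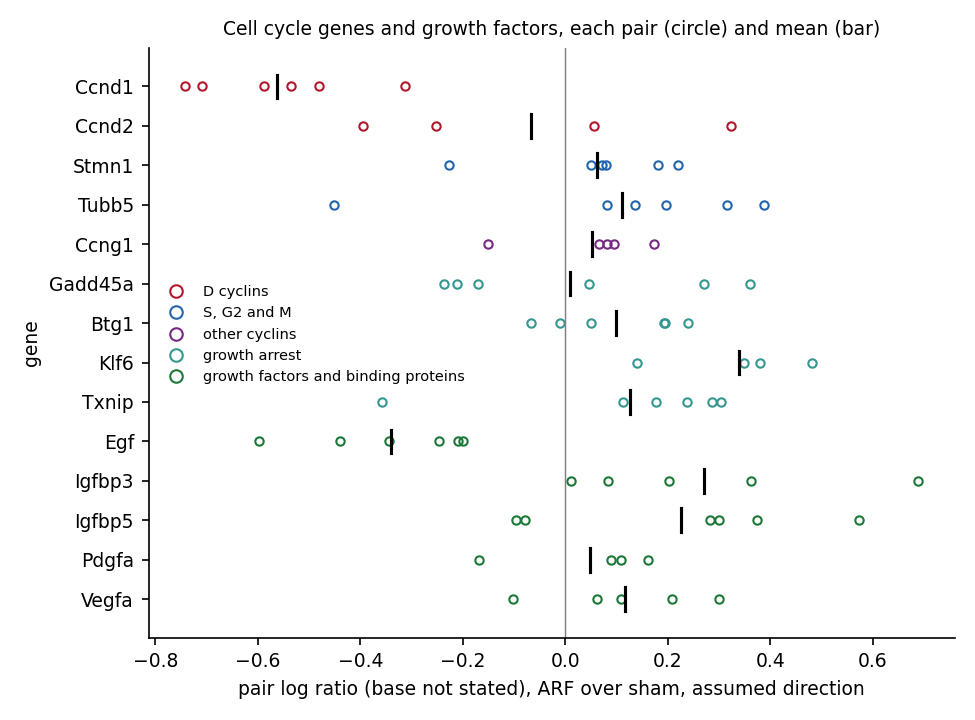
Pair log ratios of ARF over sham (horizontal axis, base not stated) for the genes of the cell cycle, growth arrest and growth factor lists with both arrays in 4 pairs or more. Circles are pairs, coloured by list, and black bars are means; Ccnd1 and Egf are the rows with all 6 pairs below 0.

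Marker genes of the cell types of a kidney were read in the same pairs, and their part in the Ccnd1 ratio was not tested. In each list pair medians were taken over the clones tested in the pairs, and reference medians over clones with at least 4 reference arrays. These sets of clones are not the same, so the 2 ranges are given as a description. The fibroblast and matrix list had means above 0 in 9 of 10 clones, 2 of which passed, with a median of 0.297 and pair medians from -0.079 to 0.66, against -0.027 to 0.147 on the reference arrays. Over all clones 9 of 947 (0.95%) passed. S100a4, a calcium-binding protein of fibroblasts, averaged 0.70 ± 0.23 (SD, n = 4 pairs; limma, adjusted p = 0.0284), Col1a1, a chain of collagen I, 0.53 ± 0.21 (n = 4 pairs; adjusted p = 0.0482) and Col4a1, a chain of basement membrane collagen, 0.455 (n = 4 pairs; adjusted p = 0.0546). These calls rested on the settings: with pairs measured on 1 array kept, for example, S100a4 and Col1a1 no longer passed (adjusted p = 0.121 and 0.187), while Col4a1 passed with the pair as a replicate block (0.0116). Col1a1 and Col4a1 lacked a value with both dyes in pairs C and D, and S100a4 in B and D. Pairs C and D were those with fibroblast and matrix medians below 0, at -0.032 and -0.079, though S100a4 read 0.362 in C. The thick limb, distal tubule and collecting duct list had a median of -0.227 with pair medians from -0.33 to -0.135, against -0.166 to 0.02 on the reference arrays. Of its 8 tested clones 5 were below 0, and only Egf passed. Klk1b3, a kallikrein, averaged -0.44, Slc12a1, the sodium-potassium-chloride cotransporter, -0.31, and Umod, uromodulin, -0.24. The 3 above 0 were Pvalb at 0.123, Slc12a3 at 0.122 and Aqp3 at 0.055.

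The proximal tubule list had 7 of 10 tested clones below 0, none of which passed, with a median of -0.093 and pair medians from -0.192 to 0.057, against -0.165 to 0.286 on the reference arrays. Its largest means were those of Hao2, a peroxisomal oxidase, at -0.37, the endocytic receptor Cubn at -0.22 and the water channel Aqp1 at -0.2. Markers of podocytes, mesangium, endothelium and smooth muscle gave 2 tested clones, Tagln at 0.41 and Tpm1 at 0.18, both encoding proteins of the contractile apparatus, and neither passed. The macrophage and lymphocyte list gave 2 as well, the class II antigen genes RT1-Ba at 0.24 and RT1-Db1 at 0.17, and neither passed. Lyz2 of the same list had 3 pairs, too few to be tested, and averaged -0.342, with 2 pairs below 0 and 1 above. Pair medians ran from -0.133 to 0.535 in the first of these lists, against -0.3 to 0.133 on the reference arrays, and from -0.181 to 0.519 in the second, against -0.303 to 0.465. The reference medians of the first list also take in Wt1, Des and Kdr, and -0.3 is Des alone on R3. Those of the second list are over Lyz2 and RT1-Db1, without RT1-Ba. The erythrocyte, adipocyte and skeletal muscle list had no clone with 4 pairs, and Hbb, beta globin, held no value on the ARF-sham arrays.

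The pattern of Ccnd1 over the 6 pairs, highest in D and lowest in F and A, was compared with 419 clones that had 1 gene symbol and values in all 6 pairs. Pearson's r with Ccnd1 had a median of 0.053, and its 5th and 95th percentiles were -0.754 and 0.794, so that a high r is common with 6 points. These correlations describe pairs that share their arrays with Ccnd1. The highest belonged to Eno1, enolase 1 of glycolysis (r = 0.97, Spearman's rho = 0.89), and Egr4, an early growth response factor (r = 0.955, rho = 0.94). Without pairs D and F, which lay farthest from the Ccnd1 median, r was 0.97 for Eno1 and 0.99 for Egr4. With 1 dye orientation alone r was lower, at 0.875 (sham in Cy3) and 0.709 (sham in Cy5) for Eno1 and 0.847 and 0.804 for Egr4.

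Next in likeness came Gpx4, a glutathione peroxidase (r = 0.92), Ggt1, gamma-glutamyltransferase of the brush border (r = 0.90), and Cox5b, a subunit of cytochrome c oxidase (r = 0.90). None of these 5 clones had a mean far from 0: their means ran from -0.05 for Egr4 to 0.071 for Ggt1. The likeness is thus one of the pattern over pairs and not of the shift. For Ggt1 it rested on averaging the dyes, since r was 0.53 with sham in Cy3 and 0.391 with sham in Cy5, and for Gpx4 it was 0.584 and 0.601. At the other end stood Bgn, biglycan, a proteoglycan of the matrix (r = -0.98, rho = -0.94), with a mean of 0.315 ± 0.234 (SD, n = 6 pairs), so that the pairs with the lowest Ccnd1 ratio had the highest Bgn ratio. Ptprf, a receptor phosphatase (r = -0.96), Bud31, a splicing factor (r = -0.95), Arf6, a small GTPase (r = -0.93), and Zfp36l1, a protein that promotes mRNA decay (r = -0.89), followed. Here too r moved with the dye: it was -0.268 with sham in Cy3 and -0.68 with sham in Cy5 for Ptprf, and -0.597 with sham in Cy5 for Arf6. Ccnd2, with 4 pairs, could not be ranked in this way.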

How the data were processed

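The deposited unit is a normalized log ratio of 2 channels, and raw data came from ImaGene 4.1, per the labels. The labels cite an earlier description for spot quality and weak signals. Log base and direction are not given in the sources used here. Of all cells 57.1% were empty, and every array had a mean of 0. The dye orientations were read in 1 direction, since their correlation within a pair was between 0.196 and 0.58, and the reference arrays as channel 2 over channel 1. The 4608 rows were read as 2304 clones with 2 spots 1152 rows apart, of which 1489 had 1 symbol, 32 several and 783 none.

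The spots of a clone were averaged, then the 2 arrays of a pair, which the labels give, and the pair was the replicate. A clone with both arrays in 4 or more pairs entered limma (R 4.3.3, limma 3.58.1; intercept, eBayes, two-sided), with Benjamini-Hochberg adjusted p under 0.05 as the threshold. The dye effect and the reference arrays (at least 4 arrays) were tested likewise. Scripts were tested on simulated data.

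Members and gene lists were chosen with earlier results of these data known. The text names list genes past the threshold, the 3 of each list with the largest absolute mean, and the 5 clones at either end of Pearson's r with Ccnd1 over the pairs. Gadd45a, Vegfa, Pdgfa, Umod, Pvalb, Slc12a3, Aqp3, Lyz2, Wt1, Des, Kdr and genes without values were named outside that rule. Array precision is limited by the number of arrays. Alternatives were centring, dye orientation, spot, filter, moderation, replicate block, levels of the rats and each pair left out.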

Additional observations from a re-analysis of the deposited data

Results flagged for a closer look

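Of 43 groups of 4 to 10 values checked, 5 held a value far from the others, by the ratio of its gap to the range of the group, and chance alone does this in about 1 group in 20. For Ccnd1 it was the array of pair D with sham in Cy5, at -0.095 from 1 spot, with the nearest array at -0.494. For Ccnd2 it was the dye effect of pair E, at 0.002, with the nearest pair at -0.127 (n = 4 pairs). Among other genes these were Tubb5 in pair C at -0.452 (nearest 0.081), Txnip in pair B at -0.358 (nearest 0.112) and Col4a1 in pair B at 0.165 (nearest 0.532, n = 4 pairs).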

How the results depend on the processing

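The mean of Ccnd1 stayed below 0 in every setting tried, from -0.664 (second spot only) to -0.519 (only arrays with sham in Cy5), and between -0.611 and -0.525 with 1 pair left out. That of Ccnd2 ran from -0.197 to 0.042 with 1 pair left out. The Ccnd1 mean on the reference arrays ran from -0.224 to -0.16 with 1 array left out (limma, adjusted p 0.0857 to 0.259). In the deposited row order the same rows averaged -0.298. They were taken to hold another clone there, so that value is no check of Ccnd1. The gap between the Ccnd1 levels of the rats was -0.005 without R1 or R3 and -0.083 without R4 when the reference direction was turned, an alternative chosen after seeing the data. The count of clones passing for ARF against sham, 9 in the reported fit, was 16 with arrays centred on their medians (9 above and 7 below 0, against 3 and 6), 28 with only sham in Cy3, 5 with pairs of 1 array kept, 15 with the second spot, and 0 with limma's trended robust moderation (119 at unadjusted p under 0.05). With the pair as a replicate block over 12 arrays it was 42, or 29 with a dye term, and 2 of 421 with no replicate block, from levels of the rats. With 1 pair left out it ran from 0 to 19; it was 0 without E (68 unadjusted) or F (59 unadjusted), 1 without B, 4 without A, 18 without D and 19 without C. The dye effect count, 152, ran from 55 to 175 with 1 pair left out, and the sham-sham count, 24, from 0 to 32 with 1 array left out. Stmn1 turned to -0.042 with only sham in Cy3 (limma, adjusted p = 0.767). Further calls lost (limma, adjusted p) were those of Egf with pairs of 1 array kept (0.0807), trended robust moderation (0.165) or levels of the rats (0.148), of S100a4 with only sham in Cy5 (0.0879), without B (0.0513) or with trended robust moderation (0.24), and of Col1a1 with only sham in Cy3 (0.0954), only sham in Cy5 (0.118), trended robust moderation (0.282) or the replicate block with a dye term (0.0965). S100a4 had no value with both dyes in B, so without B its own values were unchanged and only the other clones of the fit differed. Col4a1, which did not pass, passed in 6 settings (0.0116 to 0.047). The cause of these moves was not tested. No levels of the rats could be had for Ccnd2. Empty cells limit what can be said of Ccnd2 and of genes of the cell cycle, since a clone without a value has no bound here.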
